A study of Mus musculus with 75 samples.

Results

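Aging of the mouse large intestine was examined in RNA sequenced from whole colon of wild-type C57BL/6 mice, as 6 of the 75 samples of a series built around the aging choroid plexus. The samples were taken by their labels as colon: 3 aged animals of 22 months and 3 young animals of 3 months, 1 library per animal, with no treatment. All 6 animals were perfused with PBS before the organ was snap frozen, per the labels, and neither the sex of the animals nor the segment of colon is given in the sources used here. Every value below is the authors' normalised read value of a gene, and 1 read was worth 0.636 to 1.22 of these units depending on the library. The 6 libraries are the samples of separate animals in the labels, so p-values measure the spread between animals within an age.

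The wall of the colon holds an epithelium of absorptive cells, mucus-making goblet cells, rare hormone-making enteroendocrine cells and tuft cells, all renewed from stem cells in crypts. Beneath it lie immune cells, fibroblasts and vessels, and outside these are smooth muscle layers that are driven by the neurons and glia of the enteric nervous system. The mucus layer and the antimicrobial proteins of the epithelium keep the dense bacteria of the lumen away from the tissue. Because whole colon was sequenced, fewer cells of a type and less RNA per cell cannot be told apart.

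Markers of colon were present in all libraries. Muc2, the gel-forming mucin that goblet cells secrete, had 5145, 7829 and 8446 in aged colon, against 7462, 8093 and 7774 in young colon. Lypd8, a membrane-anchored protein of colonic absorptive cells that holds flagellated bacteria off the epithelium, was at or above 2619 in each library. Markers of other organs were mixed. Sftpb of lung ran from 1.74 to 4.89 over the 6 libraries, and Lct of small intestine and Mup3 of liver did not exceed 1.99 in any. The liver marker Alb reached 45.9, in young mouse 1, and Cela1, an elastase known from pancreas, had 151, 125 and 57.8 in aged colon, against 52.8, 89.3 and 109 in young colon, while Pnlip, the pancreatic lipase, stayed at or below 2.61. Xist, the RNA of the inactive X chromosome, ran from 50.9 to 73.5 in the 3 aged libraries and from 57.5 to 60.8 in the 3 young ones.

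Depth, taken as the sum of a library divided by its value worth 1 read, was 856047 to 1027866 reads in aged colon and 528912 to 780423 reads in young colon. Every aged library was thus deeper than every young one. Between 2 aged libraries the correlation of log2 values was 0.921 to 0.929, between 2 young libraries 0.895 to 0.904 and between an aged and a young library 0.888 to 0.918. On the first principal component, with 28.1% of the variance, the aged libraries lay at -29.5 to -20.4 and the young ones at 3.84, 19.6 and 50.7, the last being young mouse 2.

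The question of the comparison was which genes differ with age in colon. Of 20646 genes in the table, 11845 had a value of at least 2.50 in at least 3 libraries and were tested with limma. That value is worth 3 reads at the median value of 1 read, and stood for more reads in the aged libraries than in the young ones. The values were put on a log2 scale after adding 0.834, the median value worth 1 read. After Benjamini-Hochberg adjustment over these genes, 13 were called higher in aged colon at an adjusted p under 0.05, which is 0.11% of those tested, and 2 were called lower, which is 0.0169%. At an unadjusted p under 0.05, 802 genes were higher (6.77%) and 539 lower (4.55%). The counts of each list below are to be set beside these shares. In 1155 genes all 3 aged libraries stood above all 3 young ones (9.75%), and in 798 all 3 stood below (6.74%). The median log2 change over all genes tested was 0.03, and 6225 genes had a positive change (52.6%).

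The 13 higher genes were Apob, Vsig2, Gstm1, Rps29, Kif26a, Nr1d1, Lypd8, Dmrta2, Ube2e3, Gstm3, Appl2, Tpd52 and Nfic, and the 2 lower ones were Meg3 and Rps4l. Dmrta2 met the read filter through the aged libraries alone and Rps4l through the young ones alone, so these 2 calls are a description. The calls rest on the mean-variance trend of the limma fit: without it 0 genes were called in either direction, although 655 higher and 464 lower genes had an unadjusted p under 0.05. With voom, a limma fit with weights, 7 higher and 4 lower genes were called, of which 7 and 2 were among the 15. With the libraries thinned to equal depth, 15 higher and 6 lower genes were called, of which 10 and 2 were among the 15. Without aged mouse 3 and young mouse 2, both chosen after the data were seen, 3 higher and 4 lower genes were called.

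**Figure D1:**
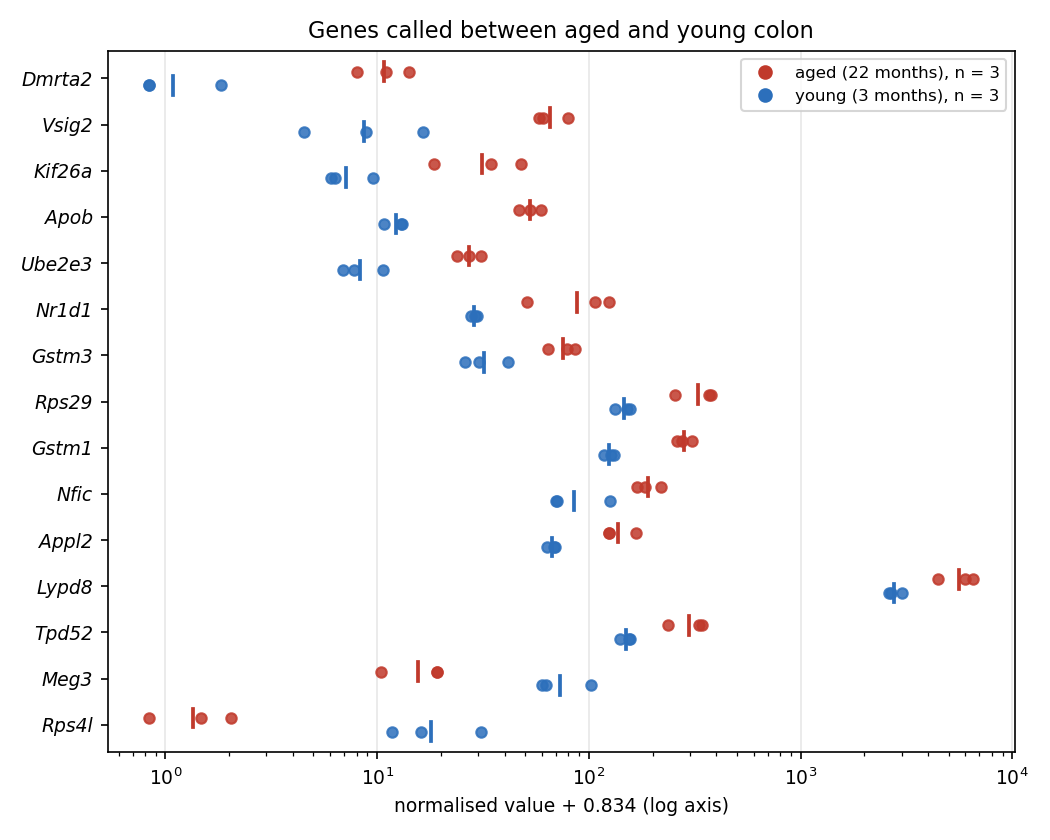
Normalised value plus 0.834 (log axis) of the 15 called genes in each colon library. Each point is 1 animal, aged above young within a gene, and each vertical line is the mean on the log scale. In all 15 genes the 3 aged points and the 3 young points do not overlap, from Rps4l near 1 read in aged colon to Lypd8 at 4448 or more there.

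Apob, the structural protein of chylomicrons and very low density lipoproteins, had 45.8, 52.0 and 58.5 in aged colon, against 9.97, 12.2 and 12.2 in young colon. All 3 aged animals stood above the highest young one. The log2 change was 2.10 (SE 0.27, limma adjusted p = 0.00106), and it passed the threshold in 17 of 18 alternative settings. Across the tissues of the series, liver held more of this gene than colon did, with 878 and 1448 in 2 aged animals, against 1165 and 1440.0 in 2 young ones. Alb, the serum albumin of liver, had 13.3, 35.2 and 8.84 in aged colon, against 45.9, 25.7 and 25.2 in young colon, with overlapping groups, and the list of liver genes summed to 200.1, 530.0 and 206 in aged colon, against 333, 300.4 and 196 in young colon. The part of liver RNA in the Apob values was not tested. Mttp, which loads lipid onto Apob, had at most 1.60 in any of the 6.

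Lypd8 had 6551, 4448 and 6009 in aged colon, against 2685, 2619 and 3009.9 in young colon, and the groups did not overlap. Its log2 change was 1.02 (SE 0.18, limma adjusted p = 0.0149). The change was between 0.90 and 1.18 in all alternatives, while the adjusted p passed the threshold in 12 of 18. It was lost when aged mouse 1, aged mouse 3, young mouse 1 or young mouse 2 was left out, with adjusted p-values up to 0.628 over all settings.

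Vsig2, a membrane protein with an immunoglobulin domain, had 57.2, 79.1 and 59.8 in aged colon, against 7.98, 3.67 and 15.6 in young colon. The lowest aged animal stood well clear of the highest young one. The log2 change was 2.92 (SE 0.37, limma adjusted p = 0.00116). Kif26a, an unconventional kinesin that mice need for normal development of the enteric nervous system, had 17.8, 47.2 and 33.6 in aged colon, against 8.73, 5.50 and 5.21 in young colon. Its log2 change was 2.13 (SE 0.37, limma adjusted p = 0.0149), and it was not called without aged mouse 2, aged mouse 3 or young mouse 2.

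The other higher genes cover transcription, vesicle traffic and protein turnover. Nfic, a transcription factor of the nuclear factor I family, had 183, 169 and 219 in aged colon, against 68.8, 69.7 and 125 in young colon, with a log2 change of 1.16 (SE 0.23, limma adjusted p = 0.0439). Tpd52, which takes part in vesicle traffic, was named after its values were seen because it had the smallest change of the 13, and had 339.8, 235 and 331 in aged colon, against 156, 140.0 and 153 in young colon, with a log2 change of 0.99 (SE 0.20, limma adjusted p = 0.0426). Appl2, an adaptor protein of early endosomes, had 165, 123 and 124 in aged colon, against 67.8, 68.5 and 62.6 in young colon, with a log2 change of 1.03 (SE 0.20, limma adjusted p = 0.0426). In all 3 genes the lowest aged library stood above the highest young one, but none was called in more than 7 of 18 alternatives.

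Ube2e3, an enzyme that passes ubiquitin to target proteins, had 30.2, 26.4 and 23.1 in aged colon, against 6.98, 9.78 and 6.08 in young colon. Its log2 change was 1.71 (SE 0.32, limma adjusted p = 0.0329) and was lost whichever library was left out. Dmrta2, a transcription factor known from brain development, had 13.3, 7.20 and 10.2 in aged colon, against 0.997, 0 and 0 in young colon (limma adjusted p = 0.0298). Dmrta2 met the read filter through the aged libraries alone, so its values are given as a description. The young libraries held 1 read of Dmrta2 between them, so the size of the change depends on the pseudocount, from 1.87 to 6.36 over the alternatives. Its call held in 7 of 13 alternatives and was lost with voom, after thinning, without the filter and without young mouse 2. In the rest of the 18 alternatives, among them each that left out an aged animal, Dmrta2 did not meet the filter and was not tested. Rps29, a protein of the small ribosomal subunit, had 367, 254 and 375 in aged colon, against 150.4, 131 and 155 in young colon, with a log2 change of 1.17 (SE 0.20, limma adjusted p = 0.0149). The call of Rps29 held in 11 of 18 alternatives and was lost without aged mouse 1, aged mouse 3, young mouse 1 or young mouse 2. Ribosomal protein genes have many processed copies in the genome, and reads split between them leave the values of Rps29 uncertain.

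Meg3, a maternally expressed imprinted RNA that is not translated, was lower in aged colon, with 9.54, 18.4 and 18.4 in aged colon, against 61.8, 101 and 59.1 in young colon. The groups did not overlap, and the log2 change was -2.22 (SE 0.29, limma adjusted p = 0.00111). It was called in 17 of 18 alternatives, the fit without the trend being the exception, as for Apob and Vsig2. Rps4l, a copy of the ribosomal protein gene Rps4x, had 0.636, 1.20 and 0 in aged colon, against 11.0, 15.3 and 30.0 in young colon. The aged libraries held fewer than 2 reads each, so its log2 change moved between -5.71 and -2.40 with the setting (limma adjusted p = 0.0022 as reported). Rps4l met the read filter through the young libraries alone, so its values are given as a description. It was not tested when a young animal was left out. Rps4x itself had 308, 373 and 347 in aged colon, against 422, 374 and 444 in young colon, and since reads can be shared between the copies, the level of Rps4l is uncertain. The next genes lower by p did not pass: Ifrd1, a transcriptional co-regulator, had 11.4, 34.4 and 16.3 in aged colon, against 63.8, 58.7 and 46.1 in young colon (limma adjusted p = 0.0653). Hsp90b1, the Hsp90 of the endoplasmic reticulum, had 272, 472 and 363 in aged colon, against 768, 692 and 634 in young colon (limma adjusted p = 0.0653). Pde9a, a phosphodiesterase of cyclic GMP, had 34.3, 52.0 and 51.7 in aged colon, against 82.8, 96.6 and 93.0 in young colon (limma adjusted p = 0.095).

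The stretches of 250 bases before the listed starts of 4 called genes follow, because Lypd8 marks absorptive cells, Apob had the smallest p, and Gstm1 and Gstm3 are neighbours on chromosome 3 that were called together. They are RefSeq sequences of GRCm38.p6, at chr11:58378782-58379031 (+ strand), chr12:7977427-7977676 (+ strand), chr3:108017974-108018223 (- strand) and chr3:107969175-107969424 (- strand), whereas the expression values were made on mm9. Capitals mark matches on either strand to TATANA, letters of the box that positions transcription starts, or to TGACNNNGC, the core of the antioxidant response element.
Lypd8: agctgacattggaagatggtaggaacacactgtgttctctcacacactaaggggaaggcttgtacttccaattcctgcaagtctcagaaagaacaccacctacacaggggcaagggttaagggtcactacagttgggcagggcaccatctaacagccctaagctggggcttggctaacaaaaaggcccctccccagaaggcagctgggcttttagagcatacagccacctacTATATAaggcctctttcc
Apob: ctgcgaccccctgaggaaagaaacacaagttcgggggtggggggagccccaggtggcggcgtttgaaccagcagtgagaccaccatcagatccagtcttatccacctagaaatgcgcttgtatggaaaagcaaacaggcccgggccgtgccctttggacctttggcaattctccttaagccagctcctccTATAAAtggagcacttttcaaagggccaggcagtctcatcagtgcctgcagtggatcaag
Gstm1: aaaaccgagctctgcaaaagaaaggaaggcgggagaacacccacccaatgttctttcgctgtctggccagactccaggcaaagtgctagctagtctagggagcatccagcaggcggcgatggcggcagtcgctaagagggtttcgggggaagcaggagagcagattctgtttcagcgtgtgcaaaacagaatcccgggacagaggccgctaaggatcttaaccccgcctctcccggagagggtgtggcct
Gstm3: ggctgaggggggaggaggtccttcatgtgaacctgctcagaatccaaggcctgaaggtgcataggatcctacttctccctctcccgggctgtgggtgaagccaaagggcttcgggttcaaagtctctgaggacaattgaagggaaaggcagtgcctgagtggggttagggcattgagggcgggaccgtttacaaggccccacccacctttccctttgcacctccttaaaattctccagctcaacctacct
In the window of Lypd8 the match to TATANA lies 18 to 13 bases before the start, and in that of Apob 60 to 55 bases before it. The listed start of Gstm1 is also that of its measured transcript in the GENCODE annotation of the same assembly, whereas those of Lypd8, Apob and Gstm3 lie 11, 29 and 109 bases from it, so positions count from the listed starts. TATANA occurs in 22.6% of 32851 promoter windows of this length and TGACNNNGC in 10.2%. Neither occurs in the windows shown for Gstm1 and Gstm3, which says only that these letters are not there. The window of another start listed for Gstm1, which is not shown, does hold TATANA.

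Absorptive cells take up salt, water and short-chain fatty acids. Of 40 genes of this list, 39 were tested: 23 had a positive and 16 a negative change, with a median of 0.13 beside 0.03 over all genes, and Lypd8 was the 1 called. At an unadjusted p under 0.05, 8 were higher and 3 lower. Slc26a3, the chloride and bicarbonate exchanger of the colon surface, had 88.4, 99.1 and 68.7 in aged colon, against 32.9, 56.2 and 46.1 in young colon (log2 change 0.93, limma adjusted p = 0.13). Ms4a8a, a membrane protein of differentiated colon epithelium, had 378, 347 and 405 in aged colon, against 216, 185 and 275 in young colon (log2 change 0.76, limma adjusted p = 0.13). Both had all aged animals above all young ones without passing the threshold. Emp1, an epithelial membrane protein, had all aged animals below all young ones, with 93.4, 138 and 199.8 in aged colon, against 304, 312 and 235 in young colon (log2 change -1.03, limma adjusted p = 0.095). The water channel Aqp8 had 567, 692 and 334 in aged colon, against 358, 405 and 535 in young colon, with overlapping groups. The levels of the list summed to 19672, 21633 and 25665 in aged colon, against 20613, 19472 and 19046 in young colon.

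Goblet cells showed no called gene. Of 25 tested genes, 13 had a positive and 12 a negative change (median 0.04), and 4 were higher and 1 lower at an unadjusted p under 0.05. Muc2 had a log2 change of -0.15 (SE 0.19, limma adjusted p = 0.808), and its aged and young values overlapped. Atp2c2, a calcium and manganese pump of the secretory pathway, had 99.2, 96.7 and 83.6 in aged colon, against 39.9, 64.8 and 41.7 in young colon (log2 change 0.95, limma adjusted p = 0.0956). Creb3l1, a membrane-bound transcription factor of secretory cells, had 264, 273 and 228 in aged colon, against 189, 167 and 186 in young colon (log2 change 0.49, limma adjusted p = 0.331). The protease inhibitor Spink4 had 654, 909 and 631 in aged colon, against 1149, 852 and 1060.1 in young colon, and the calpain Capn9 had 17.2, 22.4 and 16.3 in aged colon, against 8.97, 3.67 and 18.2 in young colon, each with overlapping groups. Retnlb, a goblet cell protein with action against bacteria, had 94.1, 288 and 143 in aged colon, against 968, 175 and 267 in young colon, with young mouse 1 far above the other 5.

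In the crypt list, 24 of 30 genes were tested, 14 with a positive and 10 with a negative change (median 0.17), and 0 were called. At an unadjusted p under 0.05, 3 were higher and 2 lower. Sox9, a transcription factor of the crypt base, had 42.6, 72.7 and 49.6 in aged colon, against 32.0, 26.9 and 25.2 in young colon (log2 change 0.92, limma adjusted p = 0.165). Slc12a2, the sodium, potassium and chloride cotransporter of crypt cells, had 193, 171 and 192 in aged colon, against 125, 75.8 and 144 in young colon (log2 change 0.74, limma adjusted p = 0.227). Against these, Axin2, a target of Wnt signalling, had 12.1, 7.20 and 8.84 in aged colon, against 23.9, 19.6 and 15.6 in young colon (log2 change -1.02, limma adjusted p = 0.266). Rnf43, which removes Wnt receptors from the cell surface and is itself a Wnt target, had 6.36, 9.59 and 10.2 in aged colon, against 16.9, 18.3 and 18.2 in young colon (log2 change -0.99, limma adjusted p = 0.278). In all 4 genes the groups did not overlap. The stem cell receptor Lgr5 had 1.27, 0.799 and 2.72 in aged colon, against 0, 1.22 and 0.869 in young colon, too few reads to be tested, so a difference in Lgr5 was not detectable at this depth.

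Of 27 tested proliferation genes, 20 had a negative and 7 a positive change (median -0.24), with 0 called, 3 lower and 1 higher at an unadjusted p under 0.05. Mcm3, a subunit of the replicative helicase, had 20.3, 19.2 and 17.7 in aged colon, against 42.9, 39.1 and 26.9 in young colon (limma adjusted p = 0.23). Rrm2, a subunit of the enzyme that makes deoxynucleotides, had 7.63, 10.1 and 9.52 in aged colon, against 22.8, 13.8 and 20.1 in young colon (limma adjusted p = 0.287), and another helicase subunit, Mcm4, had 19.1, 6.40 and 15.6 in aged colon, against 26.9, 14.7 and 27.8 in young colon (limma adjusted p = 0.435). Nusap1, a protein of the mitotic spindle, differed in direction with 14.6, 9.59 and 20.4 in aged colon, against 4.99, 9.78 and 6.95 in young colon. Mki67, the marker of cycling cells, had 32.6, 32.5 and 29.1 in aged colon, against 30.1, 26.7 and 50.4 in young colon and overlapping groups.

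Hormone-making cells gave no called gene, and some of their genes, such as Cck and Tph1, had low values. Of 19 tested of 30 enteroendocrine genes, 12 had a positive and 7 a negative change (median 0.34), with 2 higher and 1 lower at an unadjusted p under 0.05. Gcg, the precursor of glucagon-like peptides, had 49.6, 58.4 and 57.8 in aged colon, against 45.9, 15.9 and 22.6 in young colon (log2 change 1.09, SE 0.30, limma adjusted p = 0.183). All 3 aged animals stood above the young ones for Gcg, while Pyy, a hormone made by the same L cells, had 127, 129.5 and 96.5 in aged colon, against 103, 136 and 155 in young colon and overlapped. Cck, cholecystokinin, had 7.63, 8.79 and 7.48 in aged colon, against 3.99, 2.45 and 5.21 in young colon (limma adjusted p = 0.434), and Tph1, which makes the serotonin of enterochromaffin cells, had 10.2, 10.4 and 17.0 in aged colon, against 9.97, 7.34 and 3.48 in young colon (limma adjusted p = 0.452). Somatostatin, Sst, had 10.8, 14.4 and 36.0 in aged colon, against 44.9, 26.9 and 29.5 in young colon (limma adjusted p = 0.388). The granule protein Chga had 73.7, 72.7 and 171 in aged colon, against 90.7, 67.2 and 19.1 in young colon, and its groups overlapped.

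Tuft cells, which sense luminal parasites and metabolites, were near the detection limit: 9 of 18 genes passed the filter, and 0 were called. All 9 had a positive change, beside 52.6% of all genes tested. The median was 0.45 and stayed between 0.20 and 0.66 over the alternatives. Cd24a, a surface protein also present on other epithelial cells, had 239, 228 and 312 in aged colon, against 186, 175 and 99.1 in young colon (limma adjusted p = 0.2). Hpgds, a prostaglandin D synthase, had 6.11, 4.80 and 4.25 in aged colon, against 1.99, 1.83 and 1.52 in young colon (limma adjusted p = 0.435). Hpgds met the read filter through the aged libraries alone, so its values are a description. Its positive sign, counted among the 9, was set by that filter. The defining kinase Dclk1 had 2.22, 2.40 and 6.80 in aged colon, against 3.99, 4.89 and 0.869 in young colon, and its groups overlapped.

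Junction proteins seal the epithelium. Among 23 tested genes, 10 had a positive and 13 a negative change (median -0.15), with 0 called, 2 higher and 5 lower at an unadjusted p under 0.05. All aged animals were below all young ones in 6 of the 23, beside 6.74% of all genes tested. The claudin Cldn4 had 12.7, 37.6 and 31.3 in aged colon, against 49.9, 77.0 and 103 in young colon (log2 change -1.54, limma adjusted p = 0.145), and Cldn8, a claudin of the distal colon, had 13.3, 7.99 and 3.40 in aged colon, against 14.0, 20.8 and 20.9 in young colon (log2 change -1.24, limma adjusted p = 0.265). Cldn5, known from endothelium, had 5.72, 3.20 and 0 in aged colon, against 6.98, 6.11 and 10.4 in young colon (limma adjusted p = 0.364). In contrast the desmosomal cadherin Dsg2 had 230.1, 192 and 298 in aged colon, against 123, 91.7 and 156 in young colon (log2 change 0.96, limma adjusted p = 0.095). The list of general epithelial genes, such as keratins and Epcam, had a median of -0.25 over 10 genes, 8 of them with a negative change and 0 called.

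**Figure D2:**
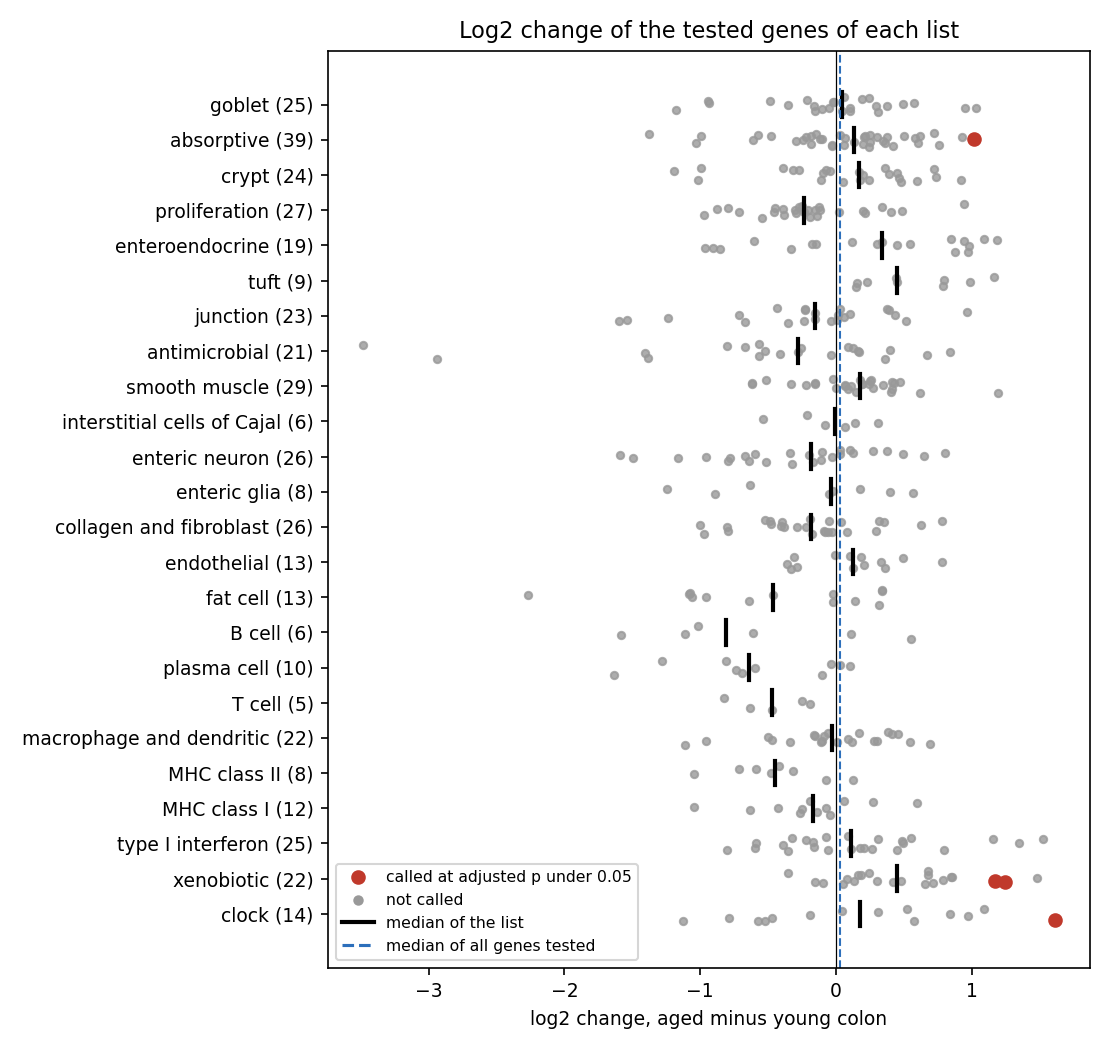
Log2 change (aged minus young) of every tested gene of 24 lists, with the number tested in brackets. Each point is a gene, each thick line the median of the list, and the dashed line the median of all genes tested. Called genes appear in the absorptive (Lypd8), xenobiotic (Gstm1 and Gstm3) and clock (Nr1d1) lists, and list medians run from -0.81 for B cells to 0.45 for tuft and xenobiotic genes.

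Antimicrobial genes varied widely among animals of the same age. Of 21 tested, 13 had a negative and 8 a positive change (median -0.28), and 0 were called, with 4 lower and 1 higher at an unadjusted p under 0.05. The median lay between -0.47 and 0.0056 over the alternatives, the lowest without young mouse 2, and was above 0 in 1 of them, without aged mouse 3. Pglyrp1, which binds bacterial peptidoglycan, had 191, 198 and 181 in aged colon, against 274, 292 and 348 in young colon (log2 change -0.67, SE 0.18, limma adjusted p = 0.17). Its groups did not overlap, whereas those of the lectins Reg3b and Reg3g did. Reg3b had 1.27, 116 and 402 in aged colon, against 749, 333 and 177 in young colon, and Reg3g had 1.91, 51.2 and 131 in aged colon, against 85.7, 81.9 and 46.1 in young colon. Aged mouse 1 was far below the other 5 animals for both lectins, and aged mouse 3 was above at least 1 young animal. Duox2, an oxidase that makes hydrogen peroxide at the epithelial surface, had 59.1, 65.6 and 69.3 in aged colon, against 54.8, 30.6 and 39.1 in young colon (limma adjusted p = 0.307), and Sprr1a, a protein of the cornified envelope, had 9.54, 27.2 and 31.9 in aged colon, against 58.8, 33.0 and 86.9 in young colon (limma adjusted p = 0.318).

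Smooth muscle genes, which move the gut content, had no call. Of 29 tested genes, 21 had a positive and 8 a negative change (median 0.18), and 0 were called, with 3 higher and 1 lower at an unadjusted p under 0.05. Acta2, smooth muscle actin, had 883, 807 and 901 in aged colon, against 533, 591 and 769 in young colon (log2 change 0.47, limma adjusted p = 0.355), and Cald1, caldesmon, had 115, 110.3 and 119 in aged colon, against 82.8, 61.1 and 81.7 in young colon (log2 change 0.62, limma adjusted p = 0.263). Casq2, a calcium store protein, had 10.2, 10.4 and 10.2 in aged colon, against 4.99, 4.89 and 2.61 in young colon (limma adjusted p = 0.295). Lmod1, which nucleates actin filaments, had the aged animals below the young ones, with 23.5, 33.6 and 31.9 in aged colon, against 37.9, 50.1 and 49.5 in young colon (limma adjusted p = 0.363). The myosin heavy chain Myh11 had 554, 628 and 637 in aged colon, against 376, 401 and 623 in young colon, and desmin, Des, had 633, 1799.5 and 823 in aged colon, against 661, 783 and 1253 in young colon; both overlapped between ages, and aged mouse 2 was highest for Des. The summed level of the list was 7318, 10582 and 7951 in aged colon, against 6387, 6884 and 9069.7 in young colon.

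The enteric nervous system was sampled thinly, with 26 of 42 neuron genes and 8 of 14 glia genes tested and 0 called in either list. Among neuron genes 17 had a negative and 9 a positive change (median -0.19), and 2 were lower and 0 higher at an unadjusted p under 0.05. Prph, the intermediate filament peripherin of peripheral neurons, had 6.36, 2.40 and 10.2 in aged colon, against 16.0, 22.0 and 17.4 in young colon (log2 change -1.59, SE 0.42, limma adjusted p = 0.143). Ret, the receptor of neurotrophic factors that enteric neurons need, had 0.636, 1.60 and 2.04 in aged colon, against 4.99, 4.89 and 2.61 in young colon (limma adjusted p = 0.49). For both genes all aged animals stood below all young ones, but Ret met the read filter through the young libraries alone, so its values are a description. Its negative sign, counted among the 17, was set by that filter. The neuropeptide Nmu had 0.636, 4.80 and 2.04 in aged colon, against 8.97, 2.45 and 15.6 in young colon, the growth cone protein Gap43 had 9.08, 9.59 and 6.12 in aged colon, against 4.99, 2.54 and 6.08 in young colon, and the RNA-binding protein Elavl4 had 3.81, 4.80 and 6.80 in aged colon, against 5.48, 2.45 and 2.61 in young colon. Among glia genes, S100b had 0.636, 1.60 and 2.72 in aged colon, against 5.98, 4.89 and 3.48 in young colon (limma adjusted p = 0.443). L1cam, an adhesion molecule, was higher in all aged animals with 66.1, 60.9 and 76.3 in aged colon, against 49.5, 39.1 and 47.8 in young colon (limma adjusted p = 0.341). The glia median was -0.04 and changed sign in 6 of 18 alternatives. The 6 genes of the interstitial cells of Cajal, the pacemakers of the gut wall, split 3 to 3 with 0 called and 0 at an unadjusted p under 0.05.

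Connective tissue genes had no call. Of 26 tested, 19 had a negative and 7 a positive change (median -0.19), and 4 were lower and 2 higher at an unadjusted p under 0.05. Col3a1, a fibrillar collagen, had 62.9, 53.6 and 44.9 in aged colon, against 122, 119 and 80.8 in young colon (log2 change -0.97, SE 0.22, limma adjusted p = 0.095). Sparc, a matrix protein that binds collagen, had 161, 139.9 and 121 in aged colon, against 268, 270.2 and 202 in young colon (log2 change -0.80, SE 0.20, limma adjusted p = 0.111). Neither overlapped between ages. Col6a2, a collagen of beaded filaments, stood on the other side with 74.4, 53.6 and 63.2 in aged colon, against 47.9, 36.7 and 38.2 in young colon (limma adjusted p = 0.315). Pdgfra, the growth factor receptor of fibroblasts, had 7.63, 4.0 and 6.80 in aged colon, against 7.98, 14.7 and 17.4 in young colon (limma adjusted p = 0.369).

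Fat cell genes had a median of -0.47 over 13 tested, 9 with a negative and 4 with a positive change, 0 called and 4 lower at an unadjusted p under 0.05. Cfd, adipsin, had 11.4, 24.8 and 31.9 in aged colon, against 131, 56.2 and 153 in young colon, a log2 change of -2.27 (SE 0.44, limma adjusted p = 0.105). Adipoq, adiponectin, had 8.26, 9.59 and 13.6 in aged colon, against 37.9, 13.4 and 21.7 in young colon (limma adjusted p = 0.282), and Fabp4, a fatty acid carrier of fat cells, had 33.1, 46.4 and 65.9 in aged colon, against 136, 64.8 and 86.0 in young colon (limma adjusted p = 0.21). Young mouse 1 was highest for Adipoq and Fabp4, and young mouse 2 the lowest of the young animals for all 3 genes. The median lay between -0.98 and -0.22 over the alternatives, the lowest without aged mouse 3 and young mouse 2 and the highest without young mouse 3. Of the other omissions of 1 library, it was -0.93 without young mouse 2 and -0.24 without aged mouse 1. The summed level of the list was 198, 231 and 348 in aged colon, against 533, 279 and 444 in young colon, and the part of attached fat in these values was not tested.

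Lymphocyte genes were present at a few reads per library. In the B cell list 6 of 16 genes passed the filter, 4 with a negative and 2 with a positive change, 0 called and 3 lower at an unadjusted p under 0.05. Cd79b, a chain of the B cell receptor, had 0.636, 7.20 and 2.04 in aged colon, against 9.97, 7.34 and 9.56 in young colon (limma adjusted p = 0.287). Its partner Cd79a had 3.18, 3.20 and 4.42 in aged colon, against 13.0, 4.89 and 9.99 in young colon (limma adjusted p = 0.369). In both, the aged animals stood below the young ones, for Cd79b by less than 1 read between aged mouse 2 and young mouse 2. The list summed to 22.9, 39.3 and 26.8 in aged colon, against 53.8, 40.3 and 66.5 in young colon.

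Plasma cells of the gut wall make the IgA that is carried into the lumen. Of 10 tested genes, 8 had a negative and 2 a positive change (median -0.64), 0 were called and 3 were lower at an unadjusted p under 0.05. Jchain, the joining chain of IgA dimers, had 71.2, 151 and 169 in aged colon, against 210.4, 209 and 176 in young colon (log2 change -0.69, SE 0.26, limma adjusted p = 0.341). Tnfrsf13b, a receptor of B cell survival factors, had 1.27, 3.20 and 0.68 in aged colon, against 6.98, 4.89 and 7.82 in young colon (limma adjusted p = 0.285), and Mzb1, a chaperone of antibody assembly, had 9.54, 20.0 and 16.3 in aged colon, against 32.9, 14.7 and 37.4 in young colon (limma adjusted p = 0.4). The members with a positive change were Sdc1, a surface proteoglycan of plasma cells and epithelium, with 128, 157 and 145 in aged colon, against 138, 190.3 and 105 in young colon, and Pigr, the epithelial receptor that carries IgA into the lumen, with 2834, 2934 and 2199.7 in aged colon, against 2627, 2432 and 2299 in young colon. The list summed to 3063, 3309 and 2569.5 in aged colon, against 3068, 2886 and 2668 in young colon, most of it Pigr, and these sums overlapped. The median was -0.25 after thinning and -0.33 without aged mouse 1.

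T cell genes passed the filter in 5 of 20 cases, all 5 with a negative change, 0 called and 0 at an unadjusted p under 0.05. Cd3e, a chain of the T cell receptor complex, had 0.636, 0.899 and 4.20 in aged colon, against 2.99, 2.75 and 4.34 in young colon and overlapping groups. Mast cell genes were at or near 0: the 11 genes summed to 1.36 to 2.54 in aged colon and 1.22 to 3.48 in young colon, and none was tested. Macrophage and dendritic cell genes split 11 positive to 11 negative among 22 tested (median -0.03), with 0 called and 2 lower at an unadjusted p under 0.05. Lyz2, lysozyme of macrophages, had 120.5, 86.7 and 102 in aged colon, against 128, 97.2 and 98.2 in young colon. Cx3cr1, a chemokine receptor of resident gut macrophages, had 9.54, 4.0 and 4.76 in aged colon, against 18.4, 12.2 and 10.4 in young colon (log2 change -1.11, limma adjusted p = 0.318), and Laptm5, a lysosomal protein of blood cells, had 8.26, 8.79 and 11.6 in aged colon, against 21.9, 12.2 and 26.1 in young colon (limma adjusted p = 0.318). With positive changes, Fcer1g, the signalling chain of Fc receptors, had 10.2, 7.20 and 17.0 in aged colon, against 4.99, 9.78 and 5.21 in young colon (limma adjusted p = 0.547), and Ctss, a lysosomal protease, had 104, 64.0 and 77.5 in aged colon, against 66.8, 79.6 and 40.8 in young colon (limma adjusted p = 0.555).

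MHC class II molecules present antigen to T helper cells. Of 8 tested genes, 7 had a negative and 1 a positive change (median -0.45), 0 were called and 2 were lower at an unadjusted p under 0.05. Cd74, the invariant chain, had 195, 231 and 231 in aged colon, against 341, 281 and 371 in young colon (log2 change -0.59, SE 0.19, limma adjusted p = 0.243). H2-DMb1, which helps to load peptides, had 5.09, 6.40 and 6.80 in aged colon, against 14.5, 15.9 and 10.4 in young colon (log2 change -1.05, limma adjusted p = 0.305). The groups of these 2 genes did not overlap, while H2-Aa, a chain of the presenting molecule itself, had 54.0, 68.0 and 76.1 in aged colon, against 135, 69.7 and 72.1 in young colon and did. B cells carry these molecules too, and the summed B cell level given above was lowest in aged mouse 1 and highest in young mouse 3; its part in the class II values was not tested.

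Type I interferon genes, which the series examined in choroid plexus, split 14 positive to 11 negative among 25 tested in colon (median 0.11), with 0 called, 2 higher and 2 lower at an unadjusted p under 0.05. Oasl2, an oligoadenylate synthase-like protein, had 19.7, 16.0 and 31.9 in aged colon, against 7.98, 6.11 and 6.95 in young colon (log2 change 1.52, SE 0.35, limma adjusted p = 0.095). Ifih1, the cytosolic RNA sensor MDA5, had 14.0, 9.59 and 15.6 in aged colon, against 5.98, 2.45 and 6.08 in young colon (log2 change 1.35, SE 0.42, limma adjusted p = 0.235). Bst2, tetherin, had the opposite sign with 12.1, 20.8 and 14.3 in aged colon, against 20.9, 23.2 and 41.7 in young colon (limma adjusted p = 0.361), and Isg15, a ubiquitin-like protein, had 6.36, 13.6 and 13.0 in aged colon, against 7.98, 7.34 and 13.0 in young colon and overlapping groups. The median of this list changed sign in 4 of 18 alternatives and was -0.11 without aged mouse 3 and young mouse 2.

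Enzymes that handle foreign compounds were among the lists with the highest medians. Of 22 tested xenobiotic genes, 19 had a positive and 3 a negative change (median 0.45 beside 0.03 over all genes), and Gstm1 and Gstm3 were called higher. At an unadjusted p under 0.05, 10 were higher and 0 lower, beside 6.77% and 4.55% of all genes tested. The median stayed between 0.26 and 0.60 over the alternatives. Gstm1, a glutathione transferase of the mu class, had 306, 275 and 260.2 in aged colon, against 130.1, 126 and 117 in young colon (log2 change 1.17, SE 0.18, limma adjusted p = 0.00679). Gstm3, a neighbouring enzyme of the same class, had 85.2, 77.9 and 63.4 in aged colon, against 40.9, 29.3 and 25.2 in young colon (log2 change 1.24, SE 0.24, limma adjusted p = 0.035). These are the genes whose upstream sequences are printed above, and all aged animals exceeded all young ones in both. The call of Gstm1 held in 15 of 18 alternatives and was lost without young mouse 2, while that of Gstm3 held in 8 of 18 and was lost without any 1 of the libraries other than young mouse 1. Sult1a1, a phenol sulfotransferase, had 331, 371 and 447 in aged colon, against 230.3, 265 and 173 in young colon (log2 change 0.79, limma adjusted p = 0.13), and Ugt2b34, a glucuronosyltransferase, had 164, 123 and 156 in aged colon, against 112, 78.3 and 80.8 in young colon (log2 change 0.71, limma adjusted p = 0.201).

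The whole family of glutathione transferases was then listed, after the values of Gstm1 and Gstm3 had been seen. Of 23 genes 21 were tested, 17 with a positive and 4 with a negative change (median 0.37), and in 11 all aged animals stood above all young ones, beside 9.75% of all genes tested. Gstm1 and Gstm3, which prompted the list, are among the 11. Among the other mu class genes Gstm7 had 15.9, 9.59 and 10.2 in aged colon, against 1.99, 3.67 and 3.48 in young colon (log2 change 1.71, limma adjusted p = 0.13), and Gstm2 had 147, 106 and 93.5 in aged colon, against 59.8, 60.5 and 78.6 in young colon (log2 change 0.78, limma adjusted p = 0.183). Gstm6 had 20.3, 9.59 and 10.2 in aged colon, against 4.99, 6.11 and 3.48 in young colon (log2 change 1.27, limma adjusted p = 0.261), whereas Gstm4 had 12.1, 17.6 and 13.6 in aged colon, against 13.0, 15.9 and 19.1 in young colon with overlapping groups. Outside this class, the membrane enzyme Mgst1 had 133, 92.7 and 118 in aged colon, against 80.8, 51.4 and 62.6 in young colon (limma adjusted p = 0.16) and the omega class enzyme Gsto1 had 358, 285 and 453 in aged colon, against 239, 237 and 207 in young colon (limma adjusted p = 0.221). Paralogs of the mu class are alike in sequence, and the values hold fractions of reads, so how reads were divided among them is uncertain.

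**Figure D3:**
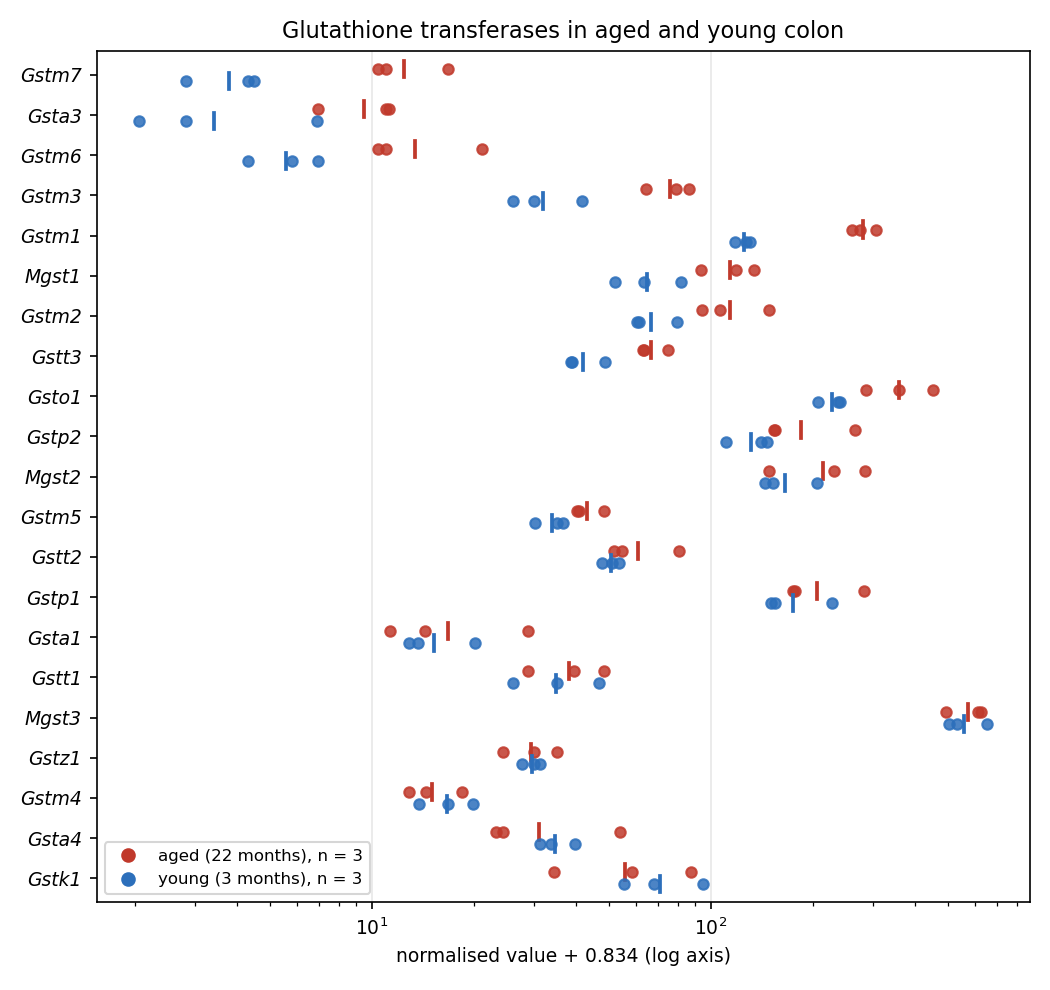
Normalised value plus 0.834 (log axis) of the 21 tested glutathione transferases in each colon library, ordered by log2 change. Points are animals, aged above young within a gene, and vertical lines are means on the log scale. Aged and young points are apart for Gstm1, Gstm2, Gstm3, Gstm5, Gstm6 and Gstm7 and mixed for Gstm4.

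Clock genes time the daily rhythm of cells, in the gut as elsewhere. Nr1d1, the repressor REV-ERB alpha, was called higher with 106, 50.4 and 124 in aged colon, against 26.9, 28.1 and 28.7 in young colon (log2 change 1.61, SE 0.28, limma adjusted p = 0.0149), though 8 of 18 alternatives kept the call, which was lost without any 1 library other than aged mouse 2. The young animals lay within 2 units of each other, and the aged ones from 50.4 to 124. Its relative Nr1d2 had 18.4, 15.6 and 38.4 in aged colon, against 8.97, 10.4 and 10.9 in young colon (log2 change 1.09, limma adjusted p = 0.249), and the output factor Dbp had 8.90, 9.59 and 16.3 in aged colon, against 6.98, 4.89 and 4.34 in young colon (log2 change 0.97, limma adjusted p = 0.375). Over the 14 tested clock genes 8 changes were positive and 6 negative (median 0.18). In 4 of them all aged animals stood above and in 4 all below the young ones, beside 9.75% and 6.74% of all genes tested. The hour at which the animals were killed is not given in the sources used here, and its part in these values was not tested.

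Several epithelial genes differed more among animals of 1 age than between ages, some of them chosen here after their values were seen. Hoxb13, the Hox gene of the most posterior body axis, had 181, 79.1 and 14.3 in aged colon, against 61.8, 134 and 127 in young colon, with aged mouse 1 highest and aged mouse 3 lowest of the 6. Insl5, a hormone of distal L cells, had 120.1, 59.2 and 25.1 in aged colon, against 38.9, 88.0 and 40.8 in young colon, in the same order as Hoxb13 among the aged animals. Car1, a carbonic anhydrase of surface cells, had the reverse order among the aged animals, with 817, 1713 and 3399.9 in aged colon, against 4272, 2587 and 1539 in young colon. Slc51a, a subunit of the bile acid exporter, had 3.18, 10.4 and 89.0 in aged colon, against 68.8, 29.3 and 33.0 in young colon, and Slc10a2, the bile acid importer of the ileum, had 1.27, 1.60 and 36.7 in aged colon, against 21.9, 9.78 and 6.08 in young colon. Mptx1, a mucosal pentraxin, had 2974, 856 and 13.6 in aged colon, against 9033, 1527 and 3726 in young colon. Among the aged animals, mouse 1 was thus at 1 end and mouse 3 at the other for each of these genes. The summed posterior Hox genes had 227, 131 and 53.7 in aged colon, against 112, 181 and 172 in young colon. That sum includes Hoxb13, which made up most of it in aged mice 1 and 2, so its order is not separate from that of Hoxb13. The part of the colon segment sampled in these values was not tested. None of these 6 genes was called, with limma adjusted p-values of 0.661 to 0.967.

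**Figure D4:**
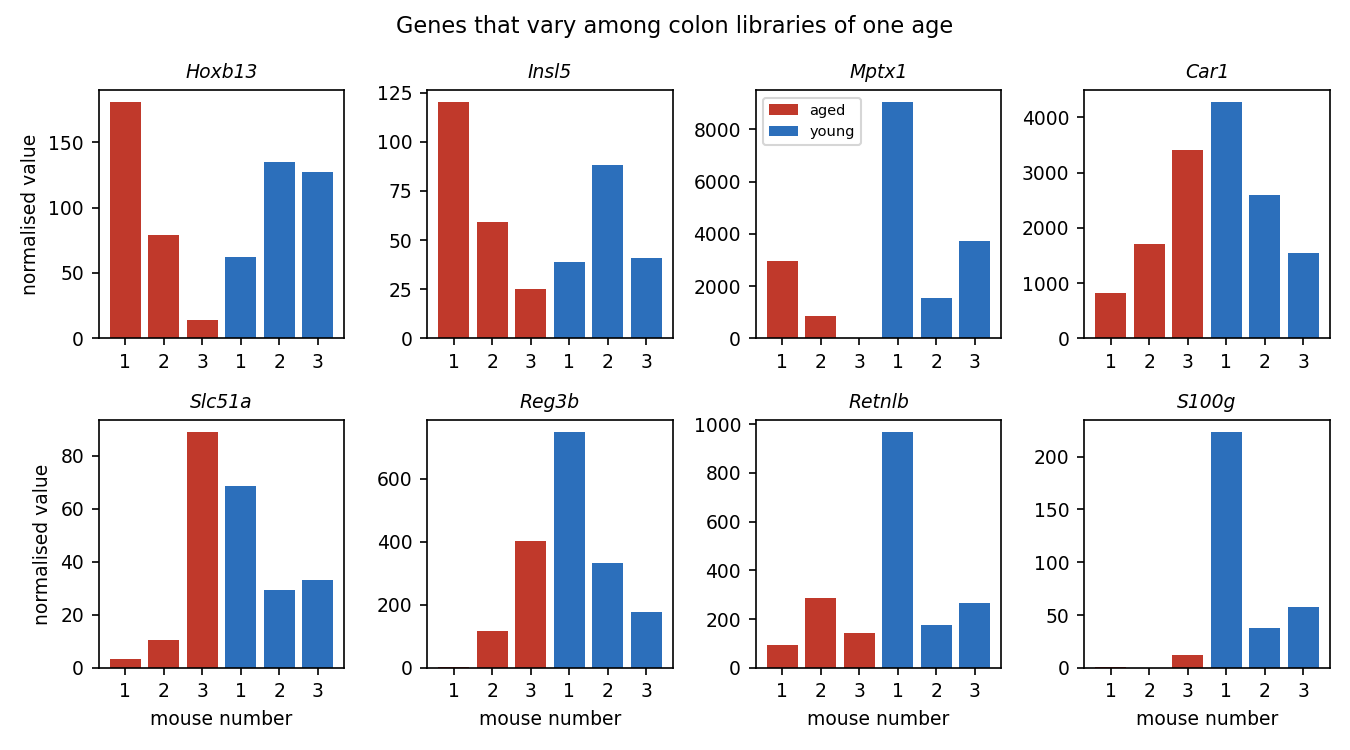
Normalised value (linear axes from 0) of 8 genes in each colon library, aged mice 1 to 3 left of young mice 1 to 3. Each bar is 1 animal. Hoxb13 and Insl5 are highest in aged mouse 1 and lowest in aged mouse 3, Car1, Slc51a and Reg3b have the reverse order among the aged mice, and S100g is near 0 in aged mice 1 and 2.

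To ask whether an age difference belonged to colon, it was set against the mean age difference of the 10 other tissues in 1 limma fit of 53 libraries, leaving out the libraries of young mouse 2 in the other tissues. That choice followed an earlier reading of these data, which was not tested here, and young mouse 2 stayed in the colon group. The labels give tissues the same animal numbers, while the fit took libraries as independent. With the mouse as a term 0 genes passed with a more positive change in colon (290 at an unadjusted p under 0.05 in limma), and 2 passed with a more negative one. In colon, the summed liver genes had 200.1, 530.0 and 206 in aged colon, against 333, 300.4 and 196 in young colon, and the summed lung genes had 45.0, 82.7 and 46.4 in aged colon, against 67.2, 54.0 and 48.2 in young colon, with young mouse 2 inside the range of the others. Of 11845 genes 2 had a more positive change in colon (0.0169%) and 2 a more negative one (0.0169%). Vsig2 differed by 3.35 on the log2 scale, with 2.89 in colon and -0.46 over the others (SE 0.66, limma adjusted p = 0.0185). It was at 0 in every library used of bone marrow, cervical lymph nodes and choroid plexus, and these libraries enter the spread of the fit. After colon, lung held the most Vsig2, with 14.2, 13.5 and 18.6 in aged lung, against 22.9 and 25.0 in young lung, the aged animals being below the young ones there. The call was lost with the mouse as a term and also without aged mouse 2 or 3 or young mouse 1 or 2 of colon, at adjusted p-values of 0.0533 to 0.273.

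Rps4l differed by -3.33, with -3.57 in colon and -0.24 over the others (SE 0.46, limma adjusted p = 4.32e-05). In hippocampus, for example, Rps4l had 30.2, 24.1 and 32.8 in aged animals, against 27.1 and 43.1 in young ones, and in liver 18.1 and 22.7 in aged animals, against 35.7 and 46.0 in young ones. S100g, calbindin-D9k, which binds calcium in absorbing epithelium and is induced by vitamin D, had 0.636, 0 and 12.2 in aged colon, against 223, 37.9 and 57.3 in young colon. It differed by -4.60 (SE 0.74, limma adjusted p = 0.000952), while in colon alone the change of -4.98 did not pass (SE 1.38, limma adjusted p = 0.36). Lung, the other tissue rich in S100g, had 79.0, 79.0 and 68.3 in aged animals, against 106 and 88.1 in young ones. Vwa5b2, a protein with a von Willebrand factor A domain, had 3.81, 4.0 and 2.72 in aged colon, against 0, 0 and 0.869 in young colon and differed by 1.92 (limma adjusted p = 0.00179). It was listed at 0 in every library of 9 other tissues, which enter the spread of the fit, and its change in colon alone did not pass (limma adjusted p = 0.342). Vwa5b2 met the read filter through the 3 aged libraries of colon alone and Rps4l through the 3 young ones alone, so their values are given as a description. S100g was near 0 in most other tissues, which also enter the spread of its fit, and it did not pass with all listed libraries. With choroid plexus as the only other tissue, none of the 4 genes passed.

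The remaining called genes of colon did not pass in this contrast. The change of Nr1d1 was 1.61 in colon and 0.98 over the others, with the difference at 0.63 (SE 0.49, limma adjusted p = 0.982). Gstm1 changed by 1.17 in colon and 0.40 over the others (difference 0.77, SE 0.38, limma adjusted p = 0.842). In lung Gstm1 had 462, 556 and 580.1 in aged animals, against 249 and 342 in young ones. Apob changed by 2.09 in colon and 0.11 over the others (difference 1.98, SE 0.58, limma adjusted p = 0.409). For Meg3 the values were -2.20 and -0.33 (difference -1.87, SE 0.64, limma adjusted p = 0.579). A difference that misses the threshold does not show that colon and the other tissues changed alike.

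**Figure D5:**
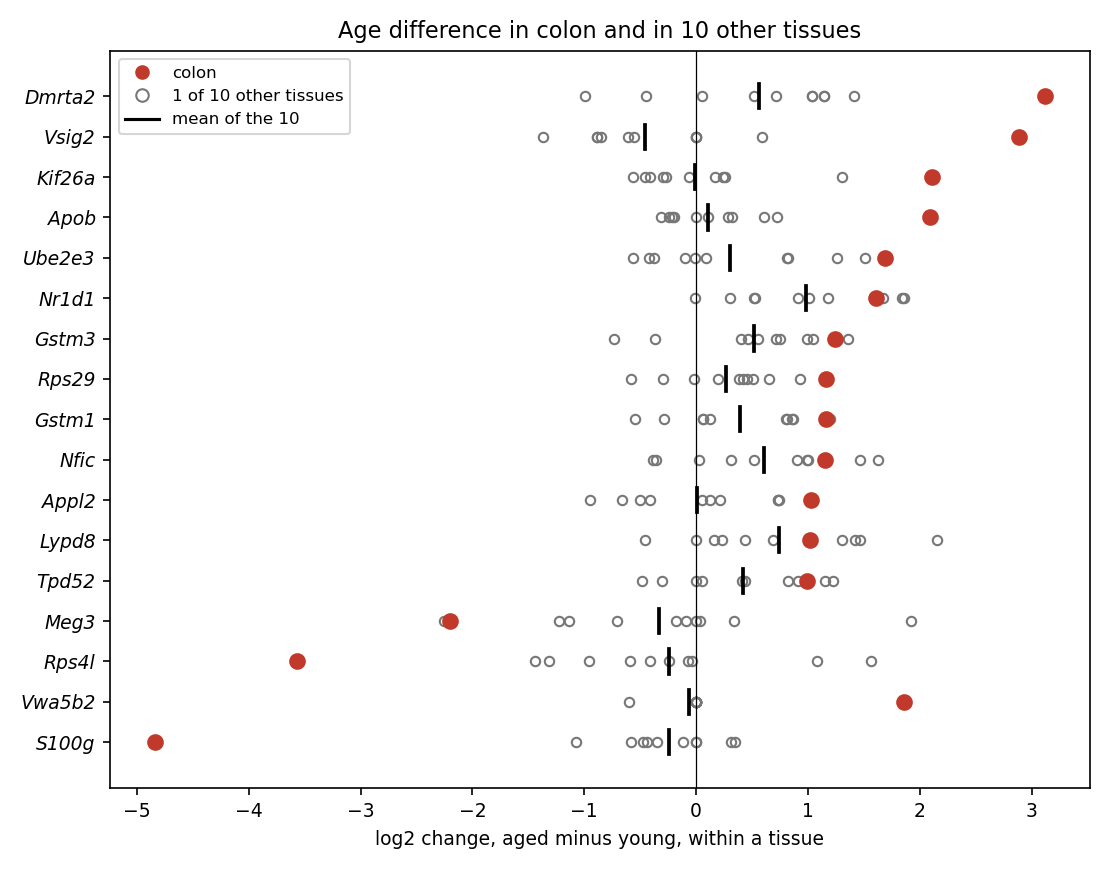
Log2 change (aged minus young) of the 15 called genes and of Vwa5b2 and S100g in colon (filled) and in each of 10 other tissues (open), with the mean of the 10 as a line. Vsig2, Rps4l, Vwa5b2 and S100g are the genes whose colon value differed from that mean. Nr1d1, Gstm1, Gstm3, Nfic, Tpd52, Lypd8 and Meg3 lie within the range of the other tissues. For Lypd8 that range rests on low values, at most 16.1 in any library used outside colon. The same holds for Nfic, at most 16.9 in any of those libraries. For Gstm3 only spleen had a larger change than colon, and no spleen library used held more than 5.03 of it.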

How the data were processed

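RNA of colon was extracted with a miRNeasy kit, per the labels' protocols, and reads were aligned to mm9 with TopHat, per the submitters' processing notes; no label or header names the counter or how libraries were scaled. The deposited signal values were judged from the files to be weighted reads per RefSeq transcript divided by 1 factor per library: 79.7% to 82.7% of values in a colon library were whole multiples, within 0.001, of the value worth 1 read. The rest were fractions, so no count model was used. The 25865 transcripts were reduced to 20646 genes by keeping the row with the highest mean, and 1 further column that matched no listed sample was not used. Depth sets precision, since low genes rest on a few reads per library.

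Values were tested as log2(value + 0.834) in R 4.3.3 by limma 3.58.1 with its moderated variances, mean-variance trend and robust option. Tested genes had at least 2.50, worth 3 reads at the median value of 1 read, in at least 3 of 6 libraries. Benjamini-Hochberg adjustment and a threshold of 0.05 were used. Folds on this scale understate the change of low genes. The contrast with other tissues used 53 libraries and a pseudocount of 0.999. Mouse numbers did not pair the libraries (correlations of deviations 0.0151, -0.0256 and -0.0251). Named genes were the 12 called genes of largest change in each direction with groups that did not overlap, or the 5 of smallest p where fewer than 5 passed, up to 4 members of smallest p per list, called members and a fixed set of markers; other genes were chosen after their values were seen. The 36 lists (687 genes) and the comparison were chosen with earlier results of these data known, and 3 further lists after the values were seen. Alternatives changed the pseudocount, filter, scaling, model, transcript choice, depth and libraries. Steps were tested on simulated data. Promoter windows come from RefSeq on GRCm38.p6 and were not converted between builds. Results of 2 genes are not reported here.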

Additional observations from a re-analysis of the deposited data

Results flagged for a closer look

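The age difference of colon differed from the mean of the other 10 tissues in 4 genes, by a test of the difference itself in a limma fit that took libraries as independent. With the mouse as a term Vsig2 and Vwa5b2 no longer passed, with all listed libraries S100g did not, and with choroid plexus as the only other tissue none of the 4 did. Vsig2 had a difference of 3.347 on the log2 scale, Vwa5b2 of 1.921, Rps4l of -3.328 and S100g of -4.602. For Vsig2 and Rps4l the change in colon alone also passed the threshold, and for Vwa5b2 and S100g it did not. Rps4l met the read filter through the 3 young colon libraries alone, so its values are a description. Vwa5b2 met the read filter through the 3 aged colon libraries alone and was listed at 0 in every library of 9 of the other tissues, and S100g was under 5 in every library used of the other tissues except lung and 1 young liver. Vsig2 was at 0 in every library used of bone marrow, cervical lymph nodes and choroid plexus. All these libraries at or near 0 enter the spread of the fit, which limits the call of Vsig2 too. The values of Vwa5b2 and S100g are therefore a description.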

How the results depend on the processing

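None of the 15 called genes changed direction in any setting run, while list medians near 0 did, for example those of interstitial cells of Cajal in 7 of 18 settings, macrophages and enteric glia in 6 each, type I interferon in 4, goblet cells in 2, and absorptive and antimicrobial genes in 1 each. Genes called higher and lower numbered 13 and 2 as reported, and the counts moved to 17 and 4 with a pseudocount 4 times as large, 5 and 1 with the smallest value as pseudocount, 4 and 2 without a filter, 0 and 0 in limma without the trend (655 and 464 at an unadjusted p under 0.05) and 7 and 4 with voom; quantile scaling, equal medians, a filter of 10 reads and summed transcripts gave 10 to 14 and 2 to 3. Mouse numbers are only shared between ages: with the replicate block 17 and 5 genes were called. Leaving out 1 library gave 2 (without young mouse 2) to 29 (without young mouse 3) higher and 1 to 7 lower. Alternatives chosen after seeing the data gave 15 and 6 after thinning, and 3 and 4 without aged mouse 3 and young mouse 2. Against the other tissues 2 and 2 genes were called as reported, 2 and 1 with all listed libraries, 0 and 2 with the mouse as a term, 10 and 6 with the larger pseudocount, 3 and 7 against choroid plexus alone, 2 and 3 with the replicate block, and 1 to 5 higher and 2 to 4 lower without 1 library. The cause of these moves was not tested. Of single-gene values in colon 3383 kept their side of the threshold, 103 lost it and 27 gained it; of list medians 657 moved by less than the spread and 42 by more. Low genes such as Lgr5 and Dclk1 are limited by depth.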

Other observations

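Chaperones of the endoplasmic reticulum, which fold secreted proteins, were listed after Hsp90b1 had been seen near the threshold. Of 16 genes tested in colon 11 had a negative and 5 a positive change (median -0.43), and 0 were called by limma. At an unadjusted p under 0.05, 8 were lower, beside 4.55% of all genes tested. Hsp90b1, which prompted the list, is among the 8. Manf, a stress-induced factor, had 80.1, 104 and 74.8 in aged colon, against 167, 172 and 117 in young colon (limma adjusted p = 0.145). Hspa5, the chaperone BiP, had 317, 455 and 438 in aged colon, against 508, 588 and 648 in young colon (limma adjusted p = 0.301). In these genes all aged animals stood below all young ones, while calreticulin, Calr, had 741, 778 and 811 in aged colon, against 758, 628 and 971 in young colon and overlapped.

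The imprinted neighbours of Meg3 were also looked up after its call. Rian, another maternally expressed RNA, had 1.27, 0 and 1.36 in aged colon, against 3.49, 12.2 and 6.37 in young colon (limma adjusted p = 0.2), and Dlk1, the paternally expressed gene of the locus, had 0, 0 and 1.36 in aged colon, against 2.99, 3.67 and 3.48 in young colon (limma adjusted p = 0.37). All aged animals were below all young ones in both, at a few reads per library. Both met the read filter through the young libraries alone, which by itself sets the groups apart, so their values are a description.

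Cyp2c69, a cytochrome P450 whose reads may be shared with close paralogs, had 16.1, 7.99 and 5.27 in aged colon, against 0.499, 1.22 and 1.30 in young colon (limma adjusted p = 0.0954). Cyp2d10, a cytochrome of another subfamily with the same limit, had 36.9, 21.8 and 21.3 in aged colon, against 12.1, 6.88 and 11.5 in young colon (limma adjusted p = 0.13). In both all aged animals stood above all young ones, but Cyp2c69 met the read filter through the aged libraries alone, so its values are a description. Red cell genes summed to 10.8, 66.2 and 49.5 in aged colon, against 9.07, 10.4 and 13.5 in young colon, with aged mice 2 and 3 above the other 4 animals; their part in the results was not tested.

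Further lists held 0 called genes in limma. Of 10 tested chemokine genes 7 had a positive and 3 a negative change (median 0.32), with 2 higher and 0 lower at an unadjusted p under 0.05. Of 12 tested MHC class I genes 3 had a positive and 9 a negative change (median -0.17), with 0 higher and 1 lower. Of 13 tested endothelial genes 8 had a positive and 5 a negative change (median 0.12), with 0 higher and 0 lower. Of 13 tested immediate early and heat shock genes 4 had a positive and 9 a negative change (median -0.21), with 0 higher and 3 lower. Of 5 tested granulocyte genes 3 had a positive and 2 a negative change (median 0.16), with 1 higher at an unadjusted p under 0.05. That was Ngp, a granule protein of neutrophils, with 3.81, 18.4 and 11.6 in aged colon, against 4.99, 2.45 and 3.48 in young colon, while S100a9, a calcium-binding protein of neutrophils, had 9.54, 42.4 and 17.0 in aged colon, against 13.0, 11.0 and 8.69 in young colon. Both were highest in aged mouse 2. In the intraepithelial and cytotoxic list 2 of 18 genes were tested, Gzma, a granzyme, with 1.27, 0.799 and 4.08 in aged colon, against 6.98, 6.11 and 1.74 in young colon, and Ccl5, a chemokine, with 0.636, 3.20 and 9.52 in aged colon, against 4.99, 4.89 and 5.21 in young colon (median -0.79).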
